A study of Danio rerio with 4 samples.

Results

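Tetrahydrobiopterin and its pterin relatives are made from GTP, and this report describes 8 genes of that chemistry in RNA from sorted olfactory sensory neurons (OSNs) of zebrafish embryos. The genes are gch1, gch2, PTS, pcbd1, pah, qdpra, xdh and aox3. They were listed by name from the pathways of tetrahydrobiopterin synthesis and recycling and of pteridine and phenylalanine metabolism, and the group was chosen from the level of gch2, which was far higher in one class of OSN than in the other. All 8 were present among the 29029 genes in the files, and all 8 passed the filter on low counts. The gene written aox3 in the files is listed as aox5 in RefSeq, with aox3 and xdh among its synonyms. RefSeq also lists a gene under the symbol xdh, and PTS is listed there as pts.

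GTP cyclohydrolase takes GTP into the pathway, 6-pyruvoyltetrahydropterin synthase (PTS) makes the next intermediate, and sepiapterin reductase completes tetrahydrobiopterin (BH4). BH4 is the cofactor of the hydroxylases of phenylalanine, tyrosine and tryptophan and of nitric oxide synthases, and it is regenerated by a dehydratase and a reductase. In fish the same early steps also feed yellow pteridine pigments in xanthophores, pigment cells of the neural crest, and zebrafish gch2 is known for its expression in pigment cells.

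Olfactory epithelia of 48 hpf embryos of Tubingen/TLF background were dissociated, and cells were sorted by fluorescence. The OMP class held cells with RFP only, from fish in which the omp promoter drives a membrane-bound RFP in ciliated OSNs, and the TRPC2 class held cells with Venus only, from fish in which the trpc2 promoter drives a membrane-bound Venus in microvillous OSNs. There were 2 libraries per class, each from a pool of cells. RNA was amplified from a T7 promoter in 1 round for the OMP pools but in 2 rounds for the TRPC2 pools, and the TRPC2 pools held fewer cells. Class, cell number and rounds of amplification therefore cannot be told apart.

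Gene counts per library were 49483362 to 84599818, and 25437 and 25542 genes had a read in the OMP libraries, beside 17885 and 17991 in the TRPC2 libraries. ompb, which encodes olfactory marker protein, had 185 and 218 RPM (reads scaled to library size) in OMP but 0.24 and 6.95 RPM in TRPC2, and trpc2b, for the channel that names the other class, was at 13.5 and 24.2 RPM in the TRPC2 pair, where the OMP pair gave 2.80 and 3.82 RPM. In the first TRPC2 library the other olfactory marker protein gene, ompa, reached 17.3 RPM, above trpc2b at 13.5 RPM. The second TRPC2 library had 0.44 RPM of ompa. Its OMP levels were higher, 55.3 RPM in the first library and 96.4 RPM in the second. The second TRPC2 channel gene, trpc2a, did not follow the label in one library. It was at 11.4 and 0.21 RPM in TRPC2 against 1.44 and 1.56 RPM in OMP. The median log2 fold change over all genes tested, TRPC2 over OMP, was -0.49, so a fold change near that value is the middle of all genes.

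Both TRPC2 libraries were above both OMP libraries for 8 of the 8 genes. Over all 29029 genes the same order held for 5.61%, and the opposite order held for 53.3%. The group was chosen from this contrast, so the order and the folds of the 8 genes are a description and were not tested. In pools of sorted cells, fewer cells that express a gene and less RNA per cell cannot be told apart.

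The 8 genes formed a steep and a shallow set. gch2, PTS, pah, xdh and aox3 were 98.5 to 226.5 times higher in TRPC2 by mean RPM, while gch1, pcbd1 and qdpra were 4.2 to 8.74 times higher. The gap between the lowest TRPC2 and the highest OMP library was at least 45.4-fold in the steep set and 1.99-fold to 7.51-fold in the shallow set. Members of a shared enzymatic step fell in different sets, since gch1 and gch2 both encode GTP cyclohydrolase.

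**Figure D1:**
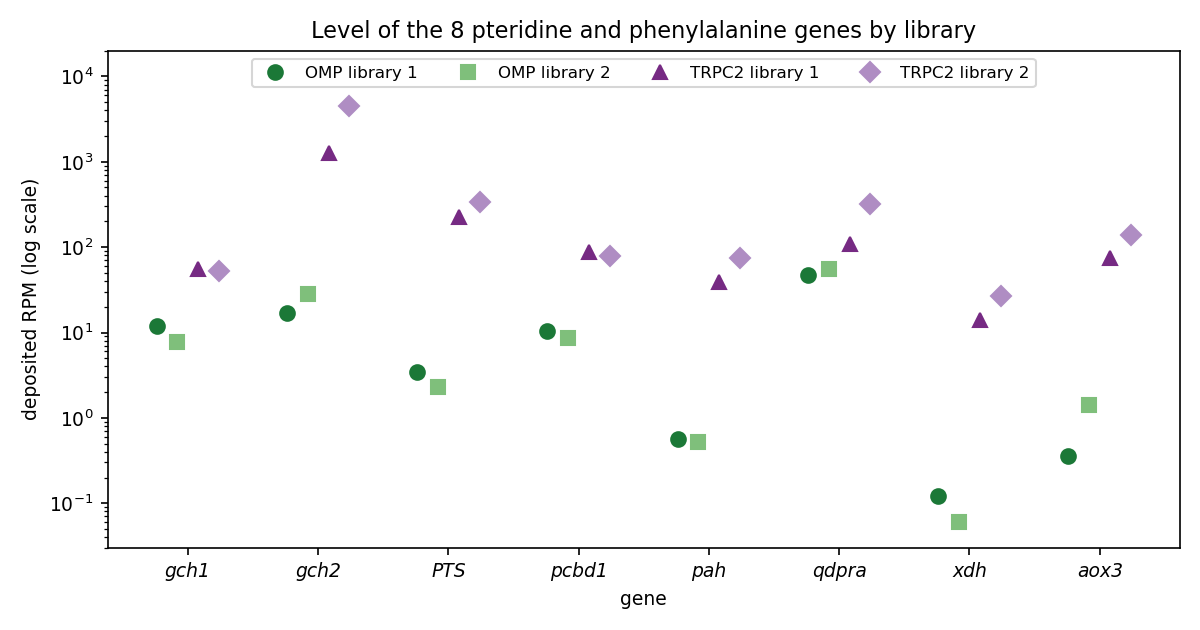
Level of each of the 8 genes (deposited RPM, log axis) in the 2 OMP libraries (green) and the 2 TRPC2 libraries (purple), 1 point per library. Both purple points sit above both green points for every gene, with the smallest gap at qdpra (54.8 RPM in the higher OMP library and 109 RPM in the lower TRPC2 library) and the widest at xdh.

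The entry step was represented by 2 genes. gch2 had 1812 and 3136 reads in OMP, or 16.8 and 28.2 RPM, and 113042 and 381124 reads in TRPC2, or 1279 and 4521 RPM. Its fitted log2 fold change was 7.82 (SE 1.02). The paralog gch1, which in vertebrates supplies BH4 to neurons and other cells, was at 12.1 and 7.78 RPM in OMP cells, compared with 55.1 and 52.9 RPM in TRPC2 cells. Its log2 fold change was 3.23 (SE 0.42), and its TRPC2 libraries lay close together while those of gch2 differed 3.53-fold. Reads that match both paralogs could have been split between them by the counting.

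Within a library, a ratio of reads between a pair of genes does not depend on the scaling. Each gch1 read was accompanied by 1.39 and 3.62 gch2 reads in the OMP libraries and by 23.2 and 85.4 in the TRPC2 libraries. gchfr encodes the GTP cyclohydrolase feedback regulator, the protein that in mammals binds the enzyme and lets phenylalanine or BH4 adjust its activity. It was at 6.52 and 5.31 RPM for OMP against 5.42 and 1.59 RPM for TRPC2, overlapping between the classes. The ratio of gch2 to gchfr reads was 2.57 and 5.30 in OMP and 236 and 2840 in TRPC2.

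The second step followed gch2 in order but was more even between libraries. PTS was at 224 and 339 RPM in the TRPC2 pair, where the OMP pair gave 3.45 and 2.27 RPM, a log2 fold change of 7.42 (SE 0.55). The files held a pair of sepiapterin reductase genes, for the enzyme that completes BH4, and they differed in order. spra was at 10.7 and 9.01 RPM in OMP cells, compared with 3.18 and 3.24 RPM in TRPC2 cells, lower in both TRPC2 libraries, but its log2 fold change on the TMM scale was -0.83 (SE 0.79, adjusted p = 0.559, edgeR quasi-likelihood). PTS gave 0.324 and 0.252 reads per spra read in OMP and 70.5 and 105 in TRPC2. The other copy, sprb, had the same order as PTS but few reads, at 0 and 0.06 RPM for OMP against 0.18 and 1.04 RPM for TRPC2.

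**Figure D2:**
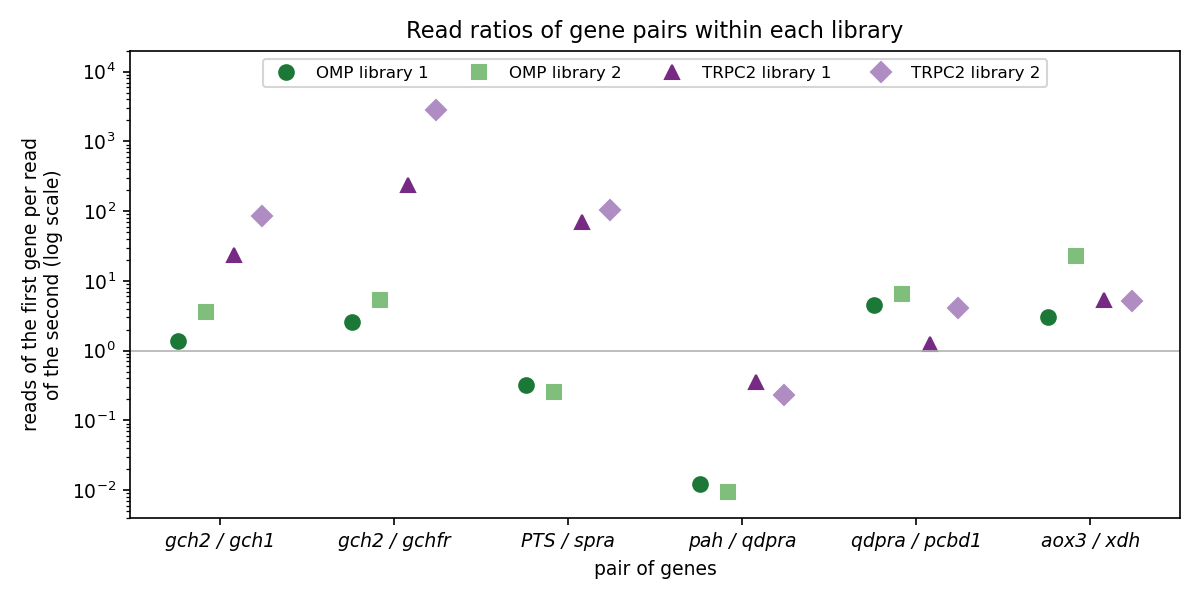
Reads of one gene per read of another within each library (log axis), which no scaling between libraries can change; green points are OMP and purple points TRPC2 libraries. gch2 to gch1, gch2 to gchfr, PTS to spra and pah to qdpra are higher in both TRPC2 libraries, while aox3 to xdh overlaps between the classes and qdpra to pcbd1 is lower in both TRPC2 libraries.

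The recycling enzymes belonged to the shallow set. pcbd1 encodes pterin-4a-carbinolamine dehydratase, which also serves as a dimerization cofactor of the transcription factor HNF1 in mammals. It was at 87.8 and 78.8 RPM in the TRPC2 pair, where the OMP pair gave 10.5 and 8.57 RPM, with a log2 fold change of 3.91 (SE 0.36), the smallest standard error of the 8. qdpra encodes dihydropteridine reductase, which returns the quinonoid form to BH4. It was at 47.1 and 54.8 RPM in OMP cells, compared with 109 and 319 RPM in TRPC2 cells, a log2 fold change of 2.88 (SE 0.65). Each pcbd1 read was accompanied by 4.49 and 6.39 qdpra reads in OMP and by 1.24 and 4.05 in TRPC2.

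Of the other recycling genes, 0 of 3 had both TRPC2 libraries above both OMP libraries, where 5.61% of all genes did, so the count is near that share. The reductase paralog qdprb1 was at 6.69 and 7.55 RPM for OMP against 22.9 and 2.50 RPM for TRPC2, on both sides of the OMP level. Its sister qdprb2 was at 0.06 and 0.01 RPM in the TRPC2 pair, where the OMP pair gave 0.41 and 0.31 RPM. dhfr, dihydrofolate reductase, which can also reduce dihydrobiopterin, was at 14.2 and 9.91 RPM in OMP cells, compared with 13.6 and 1.78 RPM in TRPC2 cells.

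pah encodes phenylalanine hydroxylase, which uses BH4 to turn phenylalanine into tyrosine and is best known from the liver. It had 62 and 58 reads in OMP, or 0.57 and 0.52 RPM, and 3476 and 6287 reads in TRPC2, or 39.3 and 74.6 RPM, a log2 fold change of 7.50 (SE 0.62). The OMP libraries agreed within counting error, since their ratio of 0.912 had an exact binomial interval of 0.623 to 1.32. A list of 14 hepatocyte genes was near 0 in TRPC2, where its summed level was 0.85 and 2.87 RPM, against 4.59 and 8.65 RPM in OMP. Of the 14, 0 had both TRPC2 libraries above both OMP libraries and 8 the opposite order, near the 5.61% and 53.3% of all genes. The hepatocyte genes fabp10a and tfa had no read in either TRPC2 library and only 2 to 10 reads in each OMP library. Others overlapped, such as apoa1b, at 0.34 and 0.19 RPM in OMP and 0.84 and 0.31 RPM in TRPC2. fgb was at 0.23 and 0.02 RPM in OMP and 0 and 0.74 RPM in TRPC2. The part of liver cells in the level of pah was not tested.

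Of 9 other BH4-dependent monooxygenase genes, 0 had both TRPC2 libraries above both OMP libraries and 5 had the opposite order, near the shares of 5.61% and 53.3% over all genes. In 3 of the 9 neither TRPC2 library had a read. Fewer genes had a read in the TRPC2 libraries (17885 and 17991) than in the OMP libraries (25437 and 25542). The share of all genes without a TRPC2 read was not computed, so this count is not read as particular to the list. The tyrosine hydroxylase gene th, which makes the dopamine precursor, reached 1.97 and 0.04 RPM in OMP, while neither TRPC2 library held a read of it. The nitric oxide synthase genes nos2a and nos1 lay between 0.12 and 0.37 RPM in OMP and between 0 and 0.02 RPM in TRPC2. tph2, a tryptophan hydroxylase gene of serotonin neurons, was at 1.51 and 1.47 RPM for OMP against 6 and 1.09 RPM for TRPC2, and agmo, the alkylglycerol monooxygenase gene, was at 1.78 and 6.01 RPM in the TRPC2 pair, where the OMP pair gave 5.81 and 8.64 RPM. For monoamine synthesis and transport 0 of 7 genes were higher in both TRPC2 libraries and 5 were lower in both, again beside 5.61% and 53.3% of all genes. One of the 5 was dbh, at 0.21 and 0.36 RPM in OMP with no read in TRPC2.

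xdh and aox3 encode molybdenum hydroxylases. Xanthine dehydrogenase makes urate from xanthine and also oxidizes pterins, and the aldehyde oxidases are related enzymes. xdh rested on 13 and 7 reads in OMP, or 0.12 and 0.06 RPM, against 1243 and 2251 reads in TRPC2, or 14.1 and 26.7 RPM. Its log2 fold change was 8.58 (SE 0.91) on the counts but 5.08 on log2(RPM + 0.5), so its place among the 8 depends on the scale. On counts it was above gch2, and with the pseudocount it was below gch2, PTS, aox3 and pah. aox3 was at 0.36 and 1.42 RPM in OMP cells, compared with 74.8 and 138 RPM in TRPC2 cells, with a log2 fold change of 7.69 (SE 1.01). The TRPC2 libraries had nearly the same ratio of the 2 genes, 5.32 and 5.18 aox3 reads per xdh read, while the OMP libraries had 3 and 22.6. Another aldehyde oxidase gene, aox1, had the opposite order, at 1.3 and 1.13 RPM for OMP against 0.15 and 0.24 RPM for TRPC2.

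Both enzymes need the molybdenum cofactor, and a list held 6 other genes, of cofactor synthesis and of a further molybdenum enzyme, sulfite oxidase. Both TRPC2 libraries were above both OMP libraries for 3 of the 6, beside 5.61% of all genes. The opposite order, that of 53.3% of all genes, was seen for 1 of the 6. This was the sulfite oxidase gene suox, at 5.17 and 7.96 RPM for OMP against 0 and 0.65 RPM for TRPC2. mocs2, which encodes molybdopterin synthase subunits, was at 17.4 and 47.9 RPM in the TRPC2 pair, where the OMP pair gave 8.12 and 8.92 RPM (log2 fold change 2.74, SE 0.66, adjusted p = 0.0721, edgeR quasi-likelihood). Many genes shared the adjusted p of 0.0721 in this test, so here and below it does not rank them. Among them unadjusted p was 0.0103 for mocs2, 0.0114 for mitfa and 2.44e-05 for ora1 (edgeR quasi-likelihood). The gephyrin gene gphna, whose protein inserts the metal and also anchors inhibitory receptors at synapses, was at 16.2 and 11.3 RPM in OMP cells, compared with 14.9 and 52.6 RPM in TRPC2 cells.

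The TRPC2 libraries differed from each other more than the OMP libraries did. Over 6122 genes with a mean of at least 10 RPM in TRPC2, the log2 ratio of the second library to the first had a median of -0.08 and quartiles of -0.91 and 0.70. Over 8362 such genes in OMP the quartiles were -0.26 and 0.23. Among the 8 genes, 6 were higher in the second TRPC2 library, with ratios of 1.51 for PTS, 1.85 for aox3, 1.90 for both pah and xdh, 2.92 for qdpra and 3.53 for gch2. gch1 and pcbd1 were slightly lower there, at ratios of 0.961 and 0.898. The counting interval of the gch2 ratio was 3.51 to 3.56, which covers counting error only. In OMP, gch2 and aox3 were higher in the second library by 1.68-fold and 3.94-fold, while gch1, PTS and pcbd1 were lower.

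Together the 8 genes held 0.0144% and 0.0136% of the gene reads in OMP and 0.336% and 0.777% in TRPC2. gch2 alone made up 18.4% and 27.2% of these reads in OMP and 67.9% and 81.4% in TRPC2. Without gch2, the remaining 7 genes summed to 74.2 and 75.4 RPM in OMP and to 605 and 1030 RPM in TRPC2. The OMP libraries were thus close to each other for this sum, and the lower TRPC2 library was far above both.

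Genes around these 8 were taken from 8 pathway lists, which held 61 further genes in the files, 58 of them tested. edgeR's quasi-likelihood test on the counts called 0 of the 58 at an adjusted p under 0.05 in either direction, as it did for 0% of the 21026 genes tested. At an unadjusted p under 0.05, 16 were higher in TRPC2 and 8 in OMP, where the shares over all genes were 7.18% and 23.3%. DESeq2 called 14 higher in TRPC2 and 2 in OMP, where it called 5.67% and 12.9% of all genes. limma on log2(RPM + 0.5) called 5 and 8, where it called 0.785% and 23.5%. Both TRPC2 libraries were above both OMP libraries for 19 of the 61 genes (31.1%, beside 5.61% of all genes), and the opposite held for 22 (36.1%, beside 53.3%).

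**Figure D3:**
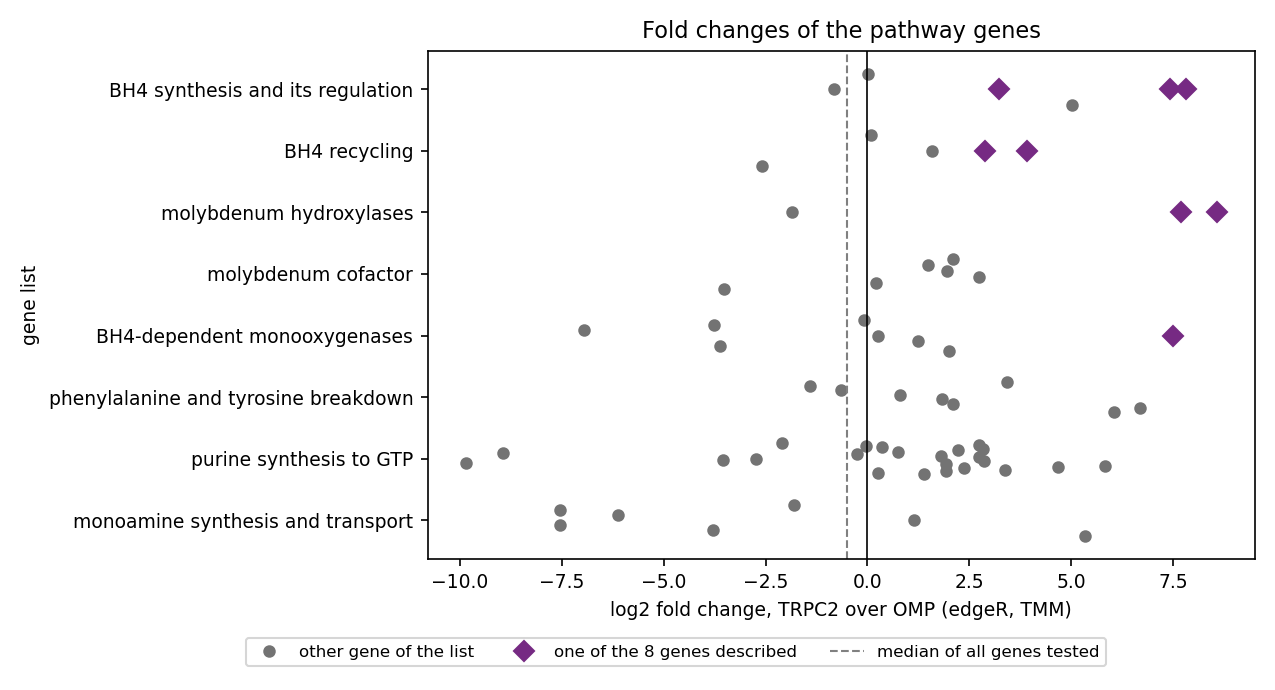
Fitted log2 fold change, TRPC2 over OMP, of the 8 genes described (purple diamonds) and of the other tested genes of 8 pathway lists (grey points); the dashed line marks the median over all genes tested, -0.49. The 8 genes lie between 2.88 and 8.58, and the purine list spreads to both sides of 0 with a median of 1.81; fitted values of genes with no TRPC2 read, at the far left, depend on the prior count of the fit.

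The purine list, whose pathway ends in the GTP that GTP cyclohydrolase consumes, held most of the genes on the TRPC2 side. Of its 23 genes, 11 had both TRPC2 libraries above both OMP libraries (5.61% of all genes) and 6 the opposite (53.3%). In edgeR 0 of 23 passed the adjusted threshold. At an unadjusted p under 0.05, 11 were higher in TRPC2 and 2 in OMP, beside 7.18% and 23.3% of all genes. DESeq2 called 10 higher in TRPC2 and 1 in OMP, beside 5.67% and 12.9% of all genes. The median log2 fold change of the list in edgeR was 1.81, beside -0.49 over all genes. ppat encodes the amidotransferase that opens the pathway. It was at 9.93 and 12.5 RPM for OMP against 49.6 and 84.2 RPM for TRPC2 (log2 fold change 3.37, SE 0.48, adjusted p = 0.0721, edgeR quasi-likelihood). paics, a bifunctional enzyme of its middle steps, was at 330 and 890 RPM in the TRPC2 pair, where the OMP pair gave 37.3 and 46.3 RPM (log2 fold change 4.67, SE 0.69, adjusted p = 0.0721, same test).

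Several later steps had the same order. adsl, adenylosuccinate lyase, was at 19.7 and 18.2 RPM in OMP cells, compared with 30.3 and 114 RPM in TRPC2 cells. atic, which closes the purine ring, was at 12.8 and 17.0 RPM for OMP against 39.1 and 84.1 RPM for TRPC2. On the branch to GTP, impdh1b, an IMP dehydrogenase gene, was at 318 and 327 RPM in the TRPC2 pair, where the OMP pair gave 70.7 and 94.9 RPM (log2 fold change 2.74, SE 0.36, adjusted p = 0.0721, edgeR quasi-likelihood). gmps, GMP synthetase, was at 43.3 and 59.1 RPM in OMP cells, compared with 113 and 163 RPM in TRPC2 cells.

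Other genes of the route overlapped between the classes or had the opposite order. impdh1a, a paralog of impdh1b, was at 45.4 and 49.6 RPM for OMP against 154 and 42.9 RPM for TRPC2, and the guanylate kinase gene guk1a was at 31.8 and 76.4 RPM for OMP against 92.2 and 15.4 RPM for TRPC2. A second guanylate kinase gene, guk1b, and the nucleoside diphosphate kinase gene nme2a lay between 0.43 and 1.89 RPM in OMP, and neither TRPC2 library held a read of them. The nme2a paralogs nme2b.1 and nme2b.2 instead had both TRPC2 libraries above both OMP libraries. nme2b.1 was at 641 and 631 RPM in OMP and 720 and 2060 RPM in TRPC2, and nme2b.2 at 1.15 and 0.24 RPM against 13.2 and 32.1 RPM. GART, the trifunctional enzyme of the early steps, was at 2.61 and 3.99 RPM for OMP against 0.66 and 0.25 RPM for TRPC2. impdh2, the other type of IMP dehydrogenase, was at 1.22 and 5.61 RPM in the TRPC2 pair, where the OMP pair gave 14.5 and 65.3 RPM, and the salvage enzyme hprt1 was at 63.0 and 79.1 RPM in OMP cells, compared with 33.5 and 36.1 RPM in TRPC2 cells. On the TMM scale the log2 fold change of hprt1 was only -0.25 (SE 0.34).

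Downstream of pah, tyrosine is broken down through the tyrosine aminotransferase encoded by tat. tat was at 0.67 and 0.28 RPM for OMP against 10.3 and 25.5 RPM for TRPC2 (log2 fold change 6.05, SE 0.99, adjusted p = 0.0721, edgeR quasi-likelihood). hpdb, the next enzyme, was at 5.58 and 0.23 RPM in the TRPC2 pair, where the OMP pair gave 0.06 and 0.03 RPM. hgd, homogentisate dioxygenase, was at 1.82 and 1.18 RPM in OMP cells, compared with 3.93 and 3.53 RPM in TRPC2 cells, and gstz1, an isomerase of the same route, was at 9.33 and 12.2 RPM for OMP against 13.5 and 31.0 RPM for TRPC2. got1, an aspartate aminotransferase gene, went the other way, at 40.5 and 28.0 RPM for OMP against 4.44 and 10.2 RPM for TRPC2 (log2 fold change -1.42, SE 0.63, adjusted p = 0.216, edgeR quasi-likelihood). Of the 9 genes in this list 4 had both TRPC2 libraries above both OMP libraries (5.61% of all genes) and 2 the opposite (53.3%). DESeq2 called 3 of the 8 tested, each higher in TRPC2, where it called 5.67% of all genes. edgeR called 0 and gave 3, each higher in TRPC2, an unadjusted p under 0.05, beside 7.18% of all genes.

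Profiles were compared with that of gch2 over the 4 libraries by the distance between log2(RPM + 0.5) values centred on each gene's mean, among 8842 other genes with a mean of at least 10 RPM in either class. The nearest was tmem130, a transmembrane protein gene, at 61.0 and 268 RPM in the TRPC2 pair, where the OMP pair gave 0.08 and 0.44 RPM, at a distance of 0.719. urah, a 5-hydroxyisourate hydrolase gene of urate breakdown, came next, at 0.79 and 1.75 RPM in OMP cells, compared with 188 and 527 RPM in TRPC2 cells. aox3 itself was the third, followed by cax1, a cation and proton exchanger gene, and by si:dkey-126g1.9. PTS was at position 6, pah at position 7 and xdh at position 20, whereas pcbd1, gch1 and qdpra were at positions 72, 111 and 140. Class, rounds of amplification and depth differed together between the libraries, so these distances describe 4 points and carry no test.

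Some markers of xanthophores had the order of the 8 genes. Of 15 genes in a xanthophore list other than the 8, 6 had both TRPC2 libraries above both OMP libraries, 2 had the opposite order and 7 overlapped. The first order held for 5.61% of all genes and the opposite for 53.3%. The list also named aox5, the RefSeq name of aox3, which is counted among the 8. The summed level was 253 and 177 RPM in OMP and 610 and 1585 RPM in TRPC2, where slc22a7a was the largest part. slc22a7a, a solute carrier gene of the organic anion transporter family, was at 0.32 and 1.23 RPM for OMP against 286 and 976 RPM for TRPC2 (log2 fold change 10.46, SE 1.34, adjusted p = 0.0721, edgeR quasi-likelihood). The carotenoid cleavage gene bco1 was at 26.3 and 58.0 RPM in the TRPC2 pair, where the OMP pair gave 0.93 and 0.81 RPM. pax7b, a transcription factor gene of the xanthophore lineage, was at 9.47 and 6.46 RPM in OMP cells, compared with 45.9 and 101 RPM in TRPC2 cells, and the sugar transporter gene slc2a15b was at 0.19 and 1.37 RPM for OMP against 21.6 and 29.1 RPM for TRPC2.

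Other genes of the list did not have this order. The receptor gene csf1ra, which xanthophores need, was at 0.19 and 1.60 RPM in the TRPC2 pair, where the OMP pair gave 0.65 and 2.50 RPM, and pax7a was at 1.60 and 0.95 RPM in OMP cells, compared with 0.28 and 1.21 RPM in TRPC2 cells. csf1ra was also in a list of macrophage genes, which summed higher in both OMP libraries. Which cells the csf1ra reads came from was not tested. edgeR called 0 of the 14 tested, with 8 higher in TRPC2 at an unadjusted p under 0.05, beside 7.18% of all genes. DESeq2 called 6, each higher in TRPC2, where it called 5.67% of all genes. Of 9 neural crest genes, 2 had both TRPC2 libraries above both OMP libraries, where 5.61% of all genes did. These were tfap2e and sox10, which is also in the xanthophore list. The opposite order held for 5, among them tfap2a, beside 53.3% of all genes. The neural crest list summed to 183.2 and 156.6 RPM in OMP and to 94.98 and 130.4 RPM in TRPC2. The part of xanthophores or other neural crest cells in the levels of the 8 genes was not tested.

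**Figure D4:**
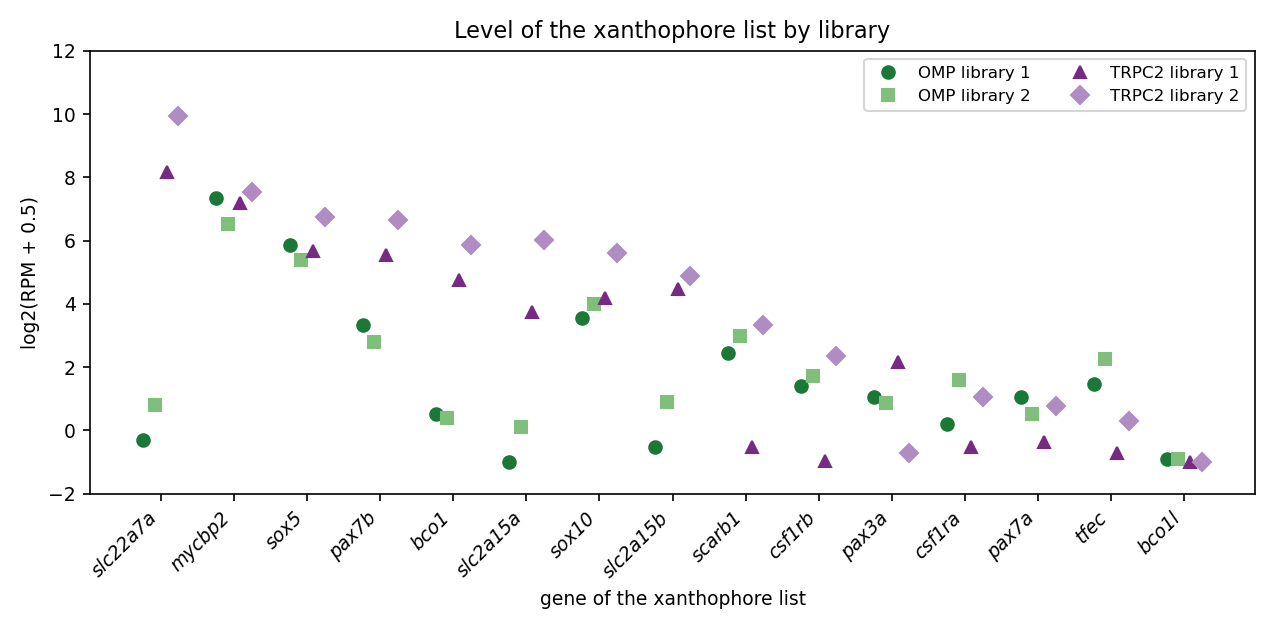
Level of the 15 genes of the xanthophore list other than the 8 genes described, as log2(RPM + 0.5), in the OMP (green) and TRPC2 (purple) libraries, sorted by mean TRPC2 level. slc22a7a, pax7b, bco1, slc2a15a, sox10 and slc2a15b have both TRPC2 points above both OMP points, and tfec and bco1l have the opposite order.

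Of 13 melanophore genes 5 had both TRPC2 libraries above both OMP libraries and 5 the opposite order, where the shares of all genes were 5.61% and 53.3%. mitfa, a transcription factor gene of the melanophore lineage, was at 0.03 and 0.59 RPM for OMP against 12.2 and 49.9 RPM for TRPC2. On the same side was mlpha, a melanosome transport gene with no read in OMP and 5.77 and 10.4 RPM in TRPC2. The opposite order was that of the melanin synthesis genes dct and tyrp1b, at 1.16 to 3.13 RPM in OMP and with no read in either TRPC2 library. The summed level of the list was 13.8 and 15.7 RPM in OMP and 46.3 and 122 RPM in TRPC2. Of 10 marker genes of microvillous OSNs 5 had both TRPC2 libraries above both OMP libraries, beside 5.61% of all genes, and 4 overlapped. gnai1 had the opposite order in RPM (its log2 fold change on the TMM scale was 0.35). The steepest of the 5 was ora1, at 2.03 and 2.65 RPM in OMP and 265 and 203 RPM in TRPC2. Its log2 fold change of 7.42 (SE 0.45) was the same as that of PTS, and its profile was at position 14 in distance to gch2. Genes of the pigment cell lists were as near, with slc2a15a at position 11, mitfa at position 15 and slc22a7a at position 25. edgeR called 0 of the 10 microvillous markers, with 6 higher in TRPC2 at an unadjusted p under 0.05, beside 7.18% of all genes. Below, the list is that of microvillous markers. This marker list summed to 1217 and 1138 RPM in OMP and to 6100 and 3565 RPM in TRPC2. The calcium-binding protein genes calb2a, at 3476 and 1635 RPM in TRPC2, and s100z, at 1482 and 993 RPM, made up most of that sum. The sum of the list was higher in the first TRPC2 library, whereas 6 of the 8 pteridine and phenylalanine genes were higher in the second. Over 6122 genes the median log2 ratio of the second TRPC2 library to the first was -0.08. Within the marker list, trpc2b, gnai1 and gnai2b were also higher in the second library, and the rest were higher in the first. A list of 11 general neuronal genes summed to 2892 and 1935 RPM in OMP and to 2964 and 6244 RPM in TRPC2. Iridophore genes summed to 64.6 and 114 RPM in OMP and to 126 and 179 RPM in TRPC2. Of the 10, 6 were lower in both TRPC2 libraries, close to the 53.3% of all genes. Only gmps, which is also in the purine list, was higher in both, beside 5.61% of all genes. It made up most of the TRPC2 sums, at 113 and 163 RPM, and was at 43.3 and 59.1 RPM in OMP. Red blood cell, macrophage and skin genes had the opposite order to the 8 genes, with 13 of 13, 7 of 9 and 11 of 12 lower in both TRPC2 libraries, beside 53.3% of all genes. Red blood cell genes summed to 11680 and 118600 RPM in OMP, far apart between the libraries, and to 14.7 and 20.4 RPM in TRPC2. Macrophage genes summed to 502.5 and 841.8 RPM in OMP and to 8.76 and 77.95 RPM in TRPC2. Skin genes summed to 4638 and 7557 RPM in OMP and to 1560 and 902 RPM in TRPC2. The part of these cell types in the levels of the 8 genes was not tested.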

How the data were processed

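RNA from 4 libraries of FAC sorted zebrafish OSNs, 2 per class, was analysed. Reads were aligned by the authors with STAR (assembly GRCz10), and VERSE produced the gene counts. For both, version, annotation and strandedness were not given in the sources used here. Deposited by the authors were raw counts per gene symbol and RPM, which divide the counts by a library total of which gene counts are 56.0% to 75.9%. A count of 3 reads in a library corresponds to 0.0269 to 0.0356 RPM.

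Levels are deposited RPM. The test between classes used raw counts and edgeR 4.0.16 (glmQLFit, glmQLFTest, TMM, default filterByExpr, class as the only term, Benjamini-Hochberg over all genes tested) in R 4.3.3. Standard errors are the log2 fold change over the root of its F statistic. DESeq2 1.42.0, limma 3.58.1 with an intensity trend, other scalings and filters, a block for the replicate number and fits lacking 1 library were alternatives. The fits were also run on simulated data. The pass condition covered only edgeR at a large fold change and a set small spread. No pass condition was set at the spread of these libraries. The labels call the libraries biological replicates without saying from which embryos they came, so p-values measure only the spread between these libraries. Intervals are exact binomial at 95% and cover counting error only.

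The 8 genes, the gene lists and the tests were chosen with earlier results of these data known. Genes named are the 8, up to 4 per other list by smallest p, the class markers and the 5 profiles nearest to gch2. Named after their values were seen were adsl, atic, GART, impdh2, hprt1, hgd, th, agmo, fabp10a, tfa, csf1ra, pax7a, slc2a15a, sox10, tfec, bco1l, impdh1a, guk1a, guk1b, nme2a, mitfa, gnai1, suox, uox, urad and allc. Symbols were matched without regard to case. The RefSeq table was used for names only, and 8 of the 8 genes matched. Reads shared by paralogs (gch1 and gch2, xdh and the aox genes) or by overlapping genes could have been split or lost in counting.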

Additional observations from a re-analysis of the deposited data

How the results depend on the processing

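Each of the 8 genes was higher in TRPC2 in all 14 fits, and both TRPC2 libraries were above both OMP libraries for 8 of 8 when scaled to gene totals with or without red blood cell genes, in thinned counts, without genes under 1 RPM and without any 1 library. Their log2 fold changes ranged from 1.84 to 3.61 for qdpra, from 2.42 to 3.55 for gch1 and from 5.08 to 9.13 for xdh, which rested on 13 and 7 OMP reads and had its lowest value with limma at 0.5 RPM. The log2 fold change of gch2, 7.82, was 6.76 and 6.78 with limma at a pseudocount of 0.5 and 0.1 RPM, and 6.57 to 8.61 with a library left out, where the lowest came without the second TRPC2 library. edgeR called 0 genes with the other scalings and filters and with red blood cell genes removed. With DESeq2, 1192 genes were higher in TRPC2 and 2717 in OMP, limma 165 and 4945 at 0.5 RPM and 175 and 5350 at 0.1 RPM, and edgeR with the replicate block 268 and 329. With a library left out there were 50 to 3773 and 60 to 8023, the high ends without a TRPC2 library, where the remaining one must borrow the OMP spread.

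Over the 8 pathway lists DESeq2 called 14 and 2 genes, limma 5 and 8 at either pseudocount, the replicate block 9 and 0, and fits with a library left out 1 to 26 and 0 to 14, with 26 and 9 without the first TRPC2 library and 22 and 14 without the second. The numbers 1 and 2 are shared by the classes only as numbers, with a correlation of 0.0144 over genes between their deviations from the class means. Some single genes changed sign. For gchfr the log2 fold change was 0.01, and -0.54 with library totals only, -0.03 with at least 100 counts in 2 libraries, limma -0.86 and -0.97, the block fit -0.22, and fits lacking 1 library -0.93 to 0.62. For dhfr it was 0.10, and -0.41 with library totals only, limma -1.13 and -1.24, the block fit -0.48, and fits lacking 1 library -1.79 to 0.92. For agmo it was -0.09, and 0.07 with DESeq2 or its size factors. For csf1ra it was -0.01, and 0.16 with DESeq2 or its size factors, 0.06 with at least 100 counts in 2 libraries, and -2.30 to 1.31 in fits lacking 1 library. For pax7a it was 0.04, and limma gave -0.60 and -0.92, library totals only -0.78, the block fit -0.29 and fits lacking 1 library -1.42 to 0.89. For guk1a it was 0.74, and limma gave -0.37 and -0.38 and fits lacking 1 library -0.85 to 1.54. For gnai1 it was 0.35, and -0.33 on library totals and -0.45 in both limma fits. The range of agmo with a library left out was -1.28 to 0.69, that of qdprb1 -0.55 to 2.43 and that of trpc2a -1.85 to 3.67. The cause was not tested.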

Other observations

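Xanthine dehydrogenase ends in urate, and the genes that break urate down were looked at after their values were seen. urah, the gene second nearest in profile to gch2, had 85 and 195 reads in OMP and 16653 and 44444 reads in TRPC2. The enzymes before and after it did not share its order. uox, urate oxidase, was at 0.19 and 0.19 RPM for OMP against 0.05 and 0 RPM for TRPC2, and urad, which acts after urah, had no read in any library. allc, allantoicase, was at 0 and 0.37 RPM in the TRPC2 pair, where the OMP pair gave 0.38 and 0.63 RPM.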
